A study of Mus musculus with 9 samples.

Results

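A set of 10 transcription factors that direct blood cell lineages was examined for 2 histone marks in mouse leukemia cells that carry the MLL-ENL fusion oncogene. The genes (Spi1, Cebpa, Klf4, Runx1, Tal1, Gata2, Gata1, Ebf1, Gata3 and Tcf7) were chosen by role, with earlier results of these data known. They were taken by symbol from the 26611 named genes of the 6 histone count files, and all 10 were found. The cells were a floxed line (label fl), a line labelled ΔERT2, called deleted here, and a ΔERT2 line that also carries Hhex-F, Flag-tagged Hhex, called rescue here. Which gene is floxed is not written in the labels; Hhex is inferred from the title and the tag. All 3 lines are labelled MLL-ENL leukemia, and the labels do not say whether a line is 1 clone or a pool. Each line has 1 library for each of H3K27me3, H3K4me3 and the Flag tag, so differences between lines have no replicate check and no test was made.

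Polycomb repressive complex 2 (PRC2) writes H3K27me3 on silenced genes, and H3K4me3 is placed around the starts of genes that are active or poised. A start that carries both is called bivalent, and bivalent starts were first described at developmental regulators. Lineage factors act in opposing pairs: Spi1 (PU.1) and Cebpa drive granulocytes and monocytes, Gata1 drives red cells and megakaryocytes, and Ebf1, Gata3 and Tcf7 drive B cells and T cells, so a committed cell keeps some of them on and others silent.

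Counts were scaled to the total of named genes in a library and are given as CPM, the counts per 1e6 of that total. For H3K27me3, which was counted over whole genes, the level is CPM per kb of gene. A pair of libraries was said to differ by the size rule when the CPM ratio was at least 1.5 in either direction and its 95% exact binomial interval excluded 1, among genes that averaged 20 counts or more across the mark's 3 libraries. Such genes are called measured, and intervals hold counting error alone. Library totals ran from 2444487 to 4203349 for H3K27me3 and from 395133 to 645240 for H3K4me3. A lower level in such bulk chromatin can come from fewer cells with the mark or from less of it in each cell, and these cannot be told apart. As a check of the labelled cell type, the windows of Mpo, Elane, Itgam and Kit, the 4 plus-strand genes of 7 myeloid markers, each held at least 10 H3K4me3 counts in every line. Their summed level was 618 to 680 CPM, but single markers differed between lines by the size rule. Elane was lower in deleted against floxed, at 0.472 (0.297 to 0.728), and higher in rescue against deleted. Mpo was lower in rescue against floxed, at 0.587 (0.379 to 0.888). Its H3K27me3 counts were 5, 6 and 483 in floxed, deleted and rescue. Of 6 plus-strand markers of other cells, Hba-a1 alone reached 10 counts, in rescue, and the sums were 4.65 to 7.59 CPM for B cells (Cd79a), 2.38 to 7.59 for T cells (Cd3d, Cd8a), 7.75 to 25.3 for red cells (Hba-a1, with Alas2 at 0) and at most 19.02 for stroma (Pdgfra). Their part in the results was not tested.

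Start sequences from RefSeq (GRCm38.p6, the assembly of mm10) are shown for 4 factors because they stand for the chromatin states described below. Each runs 300 bases, from 250 before the start, on the gene's strand, with every CG dinucleotide in capitals. Cebpa (chr7:35119043-35119342, plus strand) had H3K4me3 with 0 H3K27me3 counts in floxed and deleted and 9 in rescue, Gata2 (chr6:88198414-88198713, plus strand, the second of its RefSeq starts) had both marks, Klf4 (chr4:55532426-55532725, minus strand) had the densest H3K27me3, and Gata1 (chrX:7967861-7968160, minus strand) had sparse H3K27me3. These states are of genes, since H3K27me3 was counted over whole genes, and whether a start was bivalent cannot be read.
Cebpa: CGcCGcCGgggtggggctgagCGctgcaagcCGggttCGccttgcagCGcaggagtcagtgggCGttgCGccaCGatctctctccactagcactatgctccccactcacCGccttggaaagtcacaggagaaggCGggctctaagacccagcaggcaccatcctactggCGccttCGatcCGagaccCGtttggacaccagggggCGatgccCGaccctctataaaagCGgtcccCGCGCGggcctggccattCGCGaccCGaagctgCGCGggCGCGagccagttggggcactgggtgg
Gata2: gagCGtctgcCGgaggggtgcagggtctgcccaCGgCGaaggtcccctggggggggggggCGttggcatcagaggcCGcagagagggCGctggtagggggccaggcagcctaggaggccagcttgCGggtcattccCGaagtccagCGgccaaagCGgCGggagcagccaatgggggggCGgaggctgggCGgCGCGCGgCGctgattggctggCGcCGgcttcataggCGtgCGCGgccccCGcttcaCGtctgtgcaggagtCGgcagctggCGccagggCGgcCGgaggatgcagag
Klf4: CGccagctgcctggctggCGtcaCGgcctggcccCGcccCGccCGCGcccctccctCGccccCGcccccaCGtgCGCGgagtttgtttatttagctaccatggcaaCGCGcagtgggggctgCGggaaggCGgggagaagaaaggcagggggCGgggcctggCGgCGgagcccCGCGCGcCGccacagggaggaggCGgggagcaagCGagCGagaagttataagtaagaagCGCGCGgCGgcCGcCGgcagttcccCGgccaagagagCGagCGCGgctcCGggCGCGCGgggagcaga
Gata1: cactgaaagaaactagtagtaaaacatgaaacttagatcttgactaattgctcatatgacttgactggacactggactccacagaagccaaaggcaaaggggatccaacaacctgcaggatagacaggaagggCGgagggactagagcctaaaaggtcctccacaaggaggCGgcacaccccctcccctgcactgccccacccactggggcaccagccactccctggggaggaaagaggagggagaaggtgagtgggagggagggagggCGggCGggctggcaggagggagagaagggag
The Cebpa, Gata2 and Klf4 sequences hold 29, 29 and 40 CG dinucleotides and the Gata1 sequence 4, where the median over 32851 RefSeq starts was 7. CG-rich starts were thus found both at a factor with no H3K27me3 counts in 2 of the libraries (Cebpa) and at the factor with the most per kb (Klf4).

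The other starts in the table varied as widely. Tcf7 had 45 CG dinucleotides at its first start and 17 at its second, Gata3 had 22, and Ebf1 had 9 and 17. Runx1 had 2 at its distal start and 35 at its proximal start, 128745 bp apart, and Tal1 had 11 and 22. Spi1 has no entry. Among these 14 starts of 9 factors, 3 held the letters GATAA on either strand (Tal1, Ebf1 and Tcf7, at the first start of each), where 25.4% of all starts did. The letters TGTGGT, the core of the Runx motif, were in 2 (Runx1 at the distal start and Ebf1), against 16.8% of all starts. No factor's start held GAGGAAGT, TTGCGCAA or TAATTA, which were in 3.20%, 0.183% and 5.29% of all starts; none of the 5 motifs is contained in another on either strand, and a match says nothing of binding.

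The H3K27me3 levels of the 10 factors ran from 0 to 19.5 CPM per kb and did not sort by lineage. Klf4, a zinc finger factor of monocytes and of pluripotent cells, had the highest density, from 222 floxed, 172 deleted and 437 rescue counts. That is 17.0, 12.7 and 19.5 CPM per kb, above 97.9%, 97.7% and 98.4% of named genes. The helix-loop-helix factor Tal1, needed for the first blood stem cells and later for red cells, had 381, 343 and 621 counts, or 12.8, 11.1 and 12.1 CPM per kb. Gata3, which specifies T helper and innate lymphoid cells, had 507, 391 and 813 counts, or 9.64, 7.17 and 8.99 CPM per kb. Gata2, a factor of stem cells, progenitors and mast cells, had 191, 149 and 433 counts, or 9.34, 7.02 and 12.3 CPM per kb. These 4 factors lay above at least 95.2% of named genes in each library, and they come from the myeloid, progenitor and T-cell groups.

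**Figure D1:**
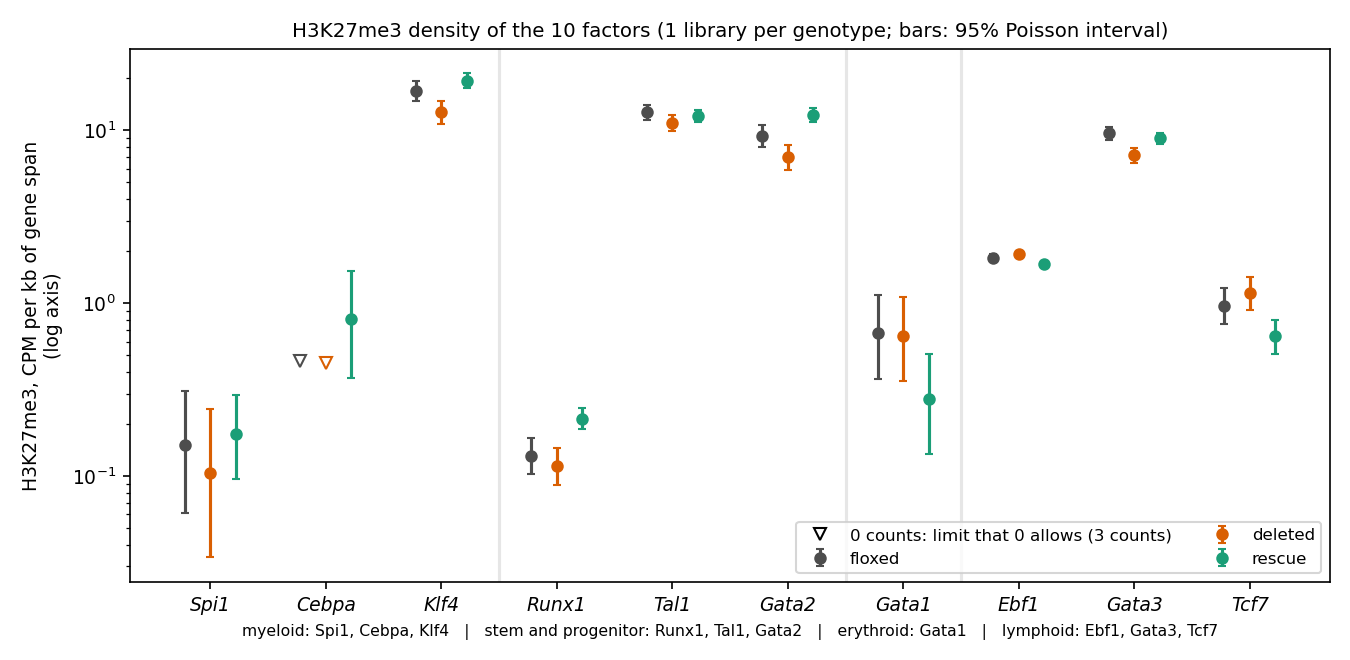
H3K27me3 in CPM per kb of gene span (log axis) for each factor in the floxed, deleted and rescue libraries; bars are 95% Poisson intervals and open triangles mark the limit that a count of 0 allows. Klf4, Tal1, Gata3 and Gata2 sit between 7.02 and 19.5 in all libraries, and Spi1 and Runx1 between 0.104 and 0.215.

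A middle group held less per kb. Ebf1, the B-cell specification factor, had 1731, 1890 and 2754 counts over 387042 bp, which is 1.83, 1.93 and 1.69 CPM per kb. Tcf7, which encodes the T-cell factor TCF1, had 71, 87 and 81 counts, or 0.969, 1.14 and 0.643 CPM per kb. Gata1, on chromosome X, had 14, 14 and 10 counts, or 0.669, 0.645 and 0.278 CPM per kb, with 95% Poisson intervals of 7.65 to 23.5 for the first pair and 4.80 to 18.4 for the third count. Gata1 was below the count minimum and lay above 65.2%, 63.2% and 53.8% of named genes. The lymphoid factors thus covered a wide range, from Gata3 down to Tcf7.

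In floxed and deleted, the core myeloid factors Cebpa and Spi1 and the progenitor factor Runx1 had the lowest densities. Cebpa, the basic leucine zipper factor that starts granulocyte development, had 0 floxed, 0 deleted and 9 rescue counts. A count of 0 allows up to 0.466 CPM per kb in floxed and 0.449 in deleted, and the rescue level was 0.812, above Tcf7 and Gata1 in that library and above 67.8% of named genes. Spi1, the Ets factor needed for monocytes, granulocytes and B cells, had 7, 5 and 14 counts over 18960 bp, or 0.151, 0.104 and 0.176 CPM per kb. Runx1, the Runt factor of stem cells and a frequent leukemia gene, had 72, 65 and 203 counts spread over 224601 bp, or 0.131, 0.114 and 0.215 CPM per kb. Spi1 and Runx1 lay above 34.5% to 48.6% of named genes across the libraries. A density over so long a gene as Runx1 says little of its starts, since a marked stretch of a few kb would be diluted in it.

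Levels at neighbouring genes are given for Tal1, Gata2, Gata3, Spi1 and Cebpa. Reads between genes were not counted, so how far a marked stretch reached cannot be read. Stil, before Tal1, had 14, 9 and 20 counts (0.0824 to 0.133 CPM per kb against 11.1 to 12.8 for Tal1), while Pdzk1ip1, past Tal1, had 87, 75 and 112 counts (5.14 to 6.86 CPM per kb). Gata2 lay between Rpn1, with 2, 7 and 13 counts (0.0393 to 0.149 CPM per kb), and Dnajb8, with 15, 13 and 27 counts (5.18 to 6.49 CPM per kb). Beyond the start of Gata3, the non-coding genes 4930412O13Rik and 9230102O04Rik, which overlap each other and the longest RefSeq form of Gata3, had 143, 76 and 200 counts and 190, 106 and 235 counts. Their densities were 5.43 to 12.0 CPM per kb, against 7.17 to 9.64 for Gata3, and reads in their overlap cannot be assigned to one of them. The Gata3 length in the file fits a span that ends before both. The genes on both sides of Spi1, Slc39a13 and Mybpc3, had 0.113 to 0.472 CPM per kb. Cebpg, next to Cebpa, had 3, 2 and 7 counts, and Slc7a10, 64.2 kb on the other side, had 215, 173 and 266 counts (4.30 to 5.97 CPM per kb).

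For H3K4me3 the position of the counted window matters, and the files settle it in part. Each gene had 1 window of 301 bp, and the length column gives no position. Over the 18458 named genes whose strand RefSeq gives, 58.3% of 9235 plus-strand genes had at least 10 counts in the floxed library, against 7.79% of 9223 minus-strand genes, and the medians were 32 and 1 counts. The deleted library had 56.8% and 6.25%, and the rescue library 55.1% and 5.75%. Minus-strand genes whose lower chromosome end lay within 400 bp of any RefSeq start had at least 10 floxed counts in 49.2% of 128 cases, and those whose lower end lay over 5 kb from a start in 3.37% of 5884. The window thus tracked the lower chromosome coordinate of a gene, which is the start of a plus-strand gene and the far end of a minus-strand gene. Klf4, Runx1, Gata1, Gata3 and Tcf7 are on the minus strand, so their H3K4me3 counts do not read their starts.

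**Figure D2:**
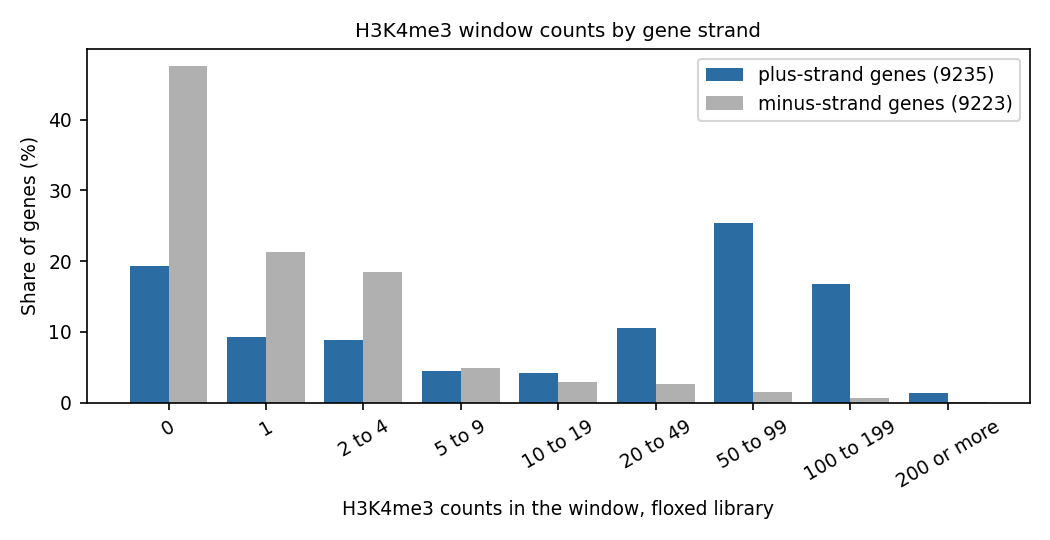
Share of genes (%) by H3K4me3 counts in the 301 bp window of the floxed library, for plus-strand and minus-strand genes in RefSeq. At least 10 counts were seen in 58.3% of plus-strand and 7.79% of minus-strand genes.

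Outside the minus-strand factors, Spi1, Cebpa and Gata2 had the most H3K4me3 counts. Spi1 (no strand in the table used) had 111, 58 and 69 counts in floxed, deleted and rescue, or 172, 138 and 175 CPM, above 93.4%, 89.2% and 93.4% of named genes. Cebpa had 67, 49 and 39 counts, or 104, 116 and 98.7 CPM. Gata2 had 95, 85 and 66 counts, or 147, 202 and 167 CPM, above 90.5% to 95.8% of named genes. Ebf1 had 32, 25 and 17 counts, or 49.6, 59.4 and 43.0 CPM, and its intervals did not overlap those of Spi1 in any line. They overlapped those of Cebpa in deleted (38.5 to 87.7 CPM against 86.2 to 154). For Gata2, the length in the file fits a window at the second RefSeq start if the far end is the RefSeq one, and for Ebf1 one 827 bp inside the gene from the second start.

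Tal1, also on the plus strand, had only 4, 2 and 4 H3K4me3 counts. On the same reckoning its window would lie 1716 bp past the nearer of its 2 RefSeq starts, so the low counts do not bear on those starts. The minus-strand factors had 0 to 10 counts in their far-end windows: Klf4 had 0, 3 and 0, Runx1 0, 1 and 1, Gata1 1, 0 and 2, Gata3 0, 0 and 1, and Tcf7 10, 3 and 5. A reading nearer to the Gata3 start came from the plus-strand gene 4930412O13Rik, whose lower end is 2646 bp from that start on the side away from Gata3; its window had 18, 10 and 6 counts.

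**Figure D3:**
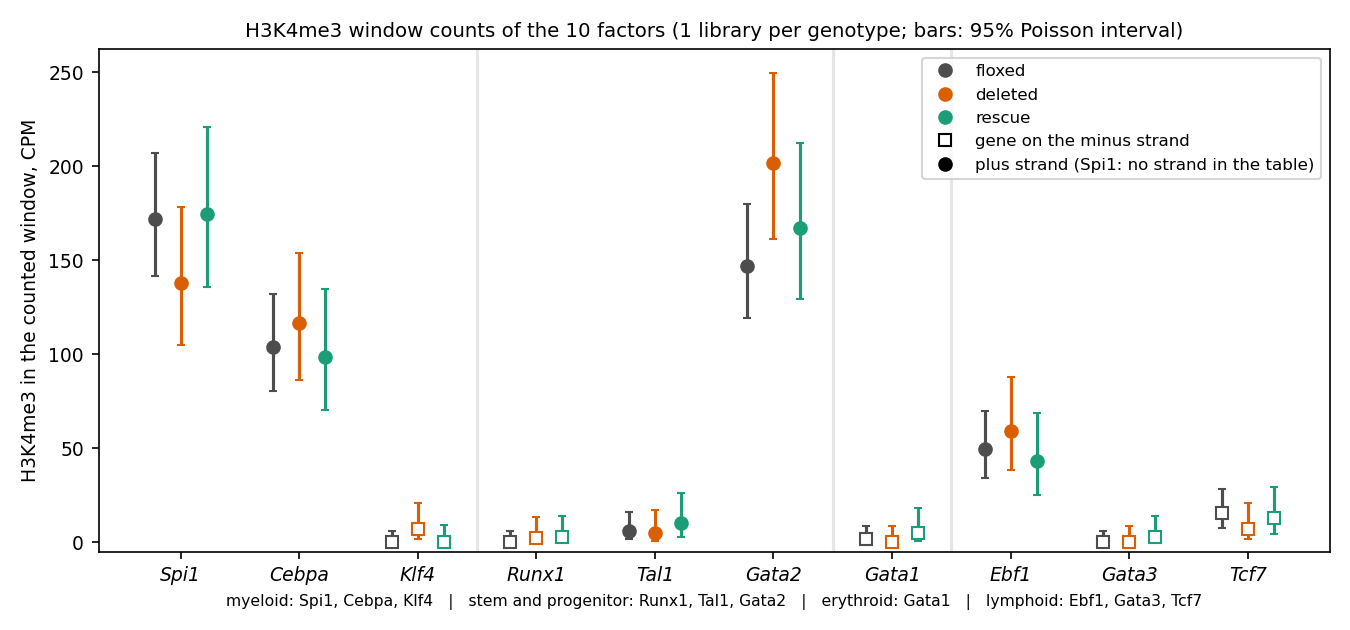
H3K4me3 in the 301 bp window in CPM for each factor and library, with 95% Poisson intervals; open squares are genes on the minus strand, whose window lies at the far end of the gene. Spi1, Cebpa and Gata2 sit between 98.7 and 202 CPM and Ebf1 between 43.0 and 59.4.

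Both marks were set side by side for the factors with H3K4me3 counts to compare. Cebpa and Spi1 had H3K4me3 with H3K27me3 at or below 0.812 CPM per kb in every library. Gata2 had both marks at high levels, and Ebf1 had lower levels of both, its window lying off the RefSeq starts on the reckoning above. Whole-gene H3K27me3 counts do not place that mark at a start, so bivalent starts were not tested. Over the members and 75 other blood and related factors listed by role, 36 were on the plus strand: 20 were measured for both marks, 8 for H3K4me3 only, 6 for H3K27me3 only and 2 for neither. Among the myeloid factors of these lists, Cebpb resembled Cebpa, with 0 H3K27me3 counts and 74.4 CPM of H3K4me3 in floxed, while Irf8 and Egr2 had 9.80 and 12.2 CPM per kb of H3K27me3 with 68.2 and 130 CPM of H3K4me3.

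**Figure D4:**
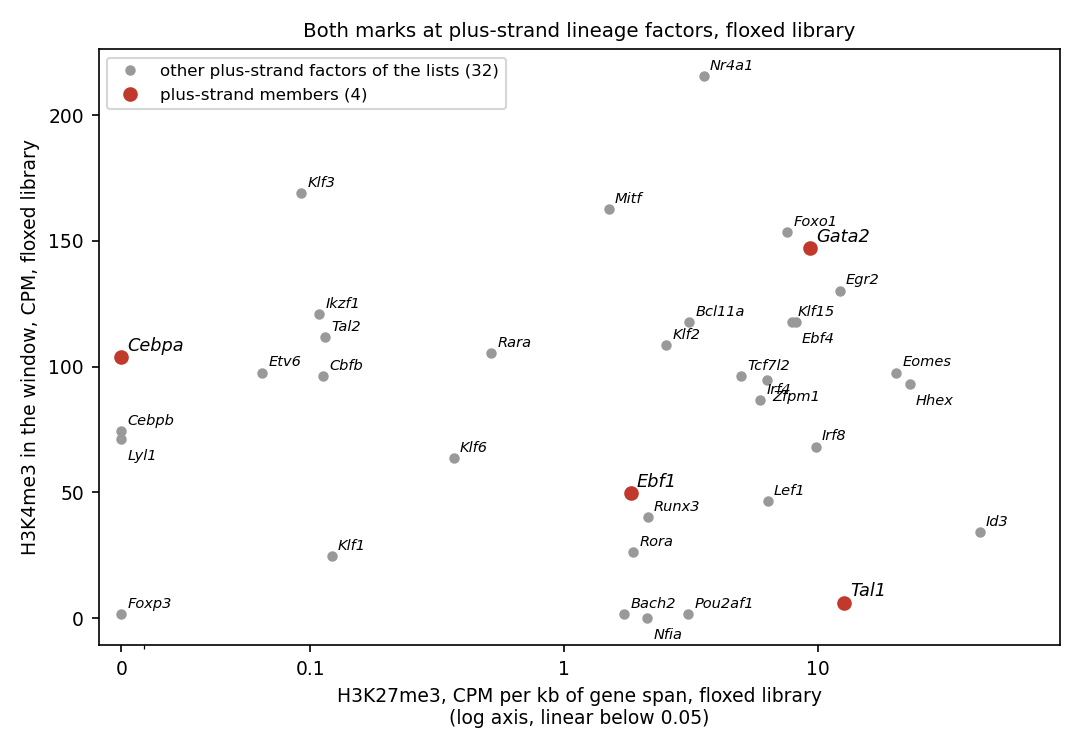
H3K27me3 in CPM per kb (log axis, linear below 0.05) against H3K4me3 in CPM for the 36 plus-strand factors of the lists in the floxed library, with the 4 plus-strand members in red. Cebpa sits at 0 H3K27me3 with 104 CPM of H3K4me3, Gata2 at 9.34 CPM per kb with 147 CPM, and Tal1 at 12.8 CPM per kb with 6.20 CPM.

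No member differed in H3K27me3 between the deleted and floxed libraries by the size rule: 0 of the 7 measured members were lower or higher, where 10.1% of 10604 measured genes were. The 4 dense factors had ratios under 1. Gata3 had a ratio of 0.743 (0.650 to 0.850), Klf4 0.747 (0.609 to 0.916) and Gata2 0.752 (0.603 to 0.937), and these 3 intervals excluded 1. Tal1 had 0.868 (0.748 to 1.01). The densest 10% of measured genes, by counts per kb summed over the 3 libraries, had a median log2 ratio of -0.42, against 0.02 for all measured genes, so Gata3 (-0.43), Klf4 (-0.42) and Gata2 (-0.41) lay at the middle of genes of like density, and Tal1 (-0.20) was nearer 0. Of those dense genes 23.8% were lower and 0.283% higher by the size rule. Of the sparser factors, Runx1 had 0.870 (0.613 to 1.23), Ebf1 1.05 (0.986 to 1.12) and Tcf7 1.18 (0.854 to 1.64). With olfactory receptor genes as the scale, Klf4 and Gata3 passed the size rule as lower, and the median of all genes moved to -0.15; 83.4% of all calls were then lower, in place of 53.4%.

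In the rescue library against the deleted one, 3 of the 7 measured members were higher in H3K27me3 and 1 was lower, where 7.07% and 11.3% of all measured genes were. Runx1 had a ratio of 1.88 (1.42 to 2.53), Gata2 1.75 (1.45 to 2.13) and Klf4 1.53 (1.28 to 1.84). Tcf7 was lower at 0.562 (0.410 to 0.769). Gata3 was at 1.25 (1.11 to 1.42), Tal1 at 1.09 (0.956 to 1.25) and Ebf1 at 0.879 (0.829 to 0.932), none past the size rule. The densest 10% of genes had a median log2 ratio of 0.32, and 16.2% of them were higher and 2.07% lower. Gata2 (0.81) and Klf4 (0.61) lay above that median, Gata3 (0.33) beside it and Tal1 (0.13) under it. Cebpa, with 9 counts against 0, stood at 1.81 times the level that 3 counts would give in the deleted library. The exact interval of its ratio began at 1.19, and it lay under the count minimum. No share was taken for genes with so few counts, so whether the rise was particular to Cebpa was not tested. None of the calls met a 2-fold rule. With olfactory receptor genes as the scale the same 4 members were called, and 39.4% of all calls were lower in place of 61.5%.

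Both comparisons share the deleted library, so a low deleted count lowers one ratio and raises the other; rescue against floxed does not use it. There, Runx1 was higher at 1.64 (1.25 to 2.18) and Tcf7 lower at 0.663 (0.476 to 0.926). That is 1 member in each direction, where 5.72% of measured genes were higher and 8.05% lower. Of the densest 10%, 1.13% were higher and 3.49% lower. Runx1 and Tcf7 were sparser, above at most 48.6% and 70.4% of named genes, and no share was taken for genes of their density. Tcf7 was no longer past the size rule with either of 2 other scalings, TMM factors and median-of-ratios size factors. Gata2 had 1.32 (1.11 to 1.57), an interval above 1 without the size, and Klf4 1.14 (0.972 to 1.35). Tal1 at 0.948 (0.833 to 1.08) and Gata3 at 0.933 (0.834 to 1.04) were near the floxed level. Ebf1 was at 0.925 (0.871 to 0.983). Cebpa stood at 1.74 times the level that 3 floxed counts would give, with an interval that began at 1.15, and Gata1 had a ratio of 0.415 (0.165 to 1.01) on 10 against 14 counts.

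**Figure D5:**
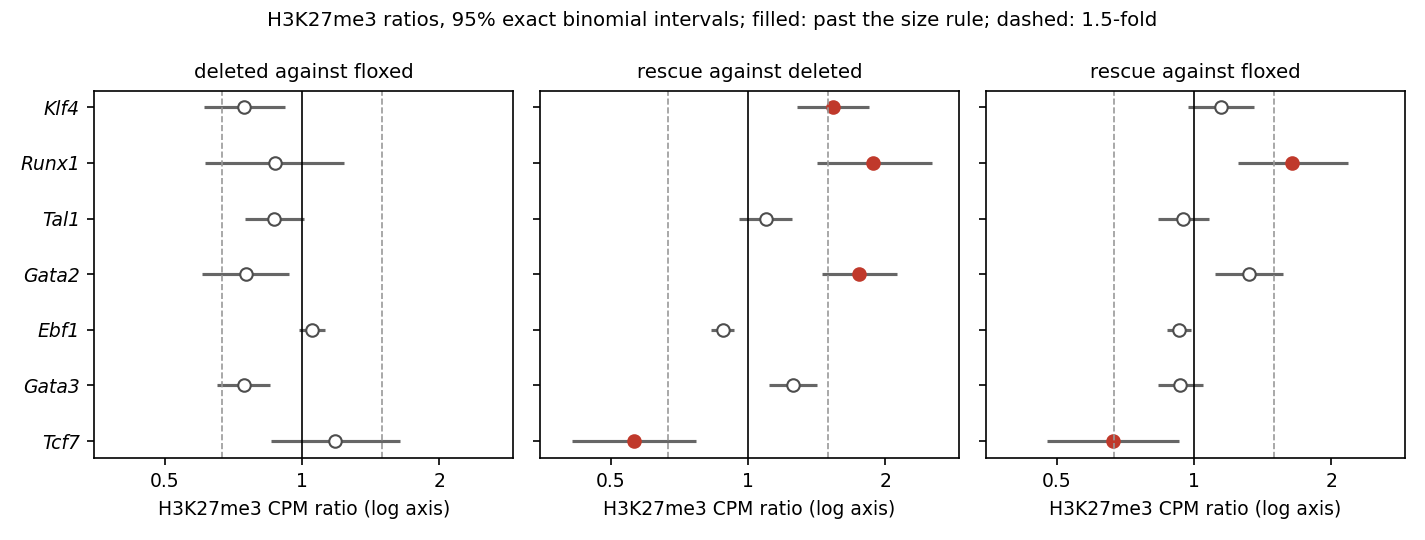
H3K27me3 CPM ratios (log axis) of the 7 measured members in the 3 comparisons, with 95% exact binomial intervals; filled points pass the size rule and dashed lines mark 1.5-fold. Runx1, Gata2 and Klf4 are higher and Tcf7 lower in rescue against deleted, and no member is called in deleted against floxed.

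H3K4me3 differed by the size rule at none of the 4 measured members (Spi1, Cebpa, Gata2 and Ebf1) in any comparison. The rule called 7.41% of 6681 measured genes in deleted against floxed (4.39% lower, 3.02% higher). It called 10.5% in rescue against deleted (5.97% lower, 4.49% higher) and 5.84% in rescue against floxed (3.92% lower, 1.92% higher). These shares were 6.97%, 9.73% and 5.63% of the 4781 measured plus-strand genes. In deleted against floxed, Gata2 had a ratio of 1.37 (1.01 to 1.86), Spi1 0.801 (0.573 to 1.11), Cebpa 1.12 (0.760 to 1.65) and Ebf1 1.20 (0.681 to 2.09). In rescue against deleted these were 0.827 (0.590 to 1.15), 1.27 (0.880 to 1.83), 0.847 (0.542 to 1.32) and 0.724 (0.367 to 1.40). In rescue against floxed the 4 ratios ran from 0.868 to 1.13, and all their intervals held 1. Changes within these intervals were not detectable at this depth. With olfactory receptor genes as the scale, Spi1 passed the rule as higher in rescue against deleted, while the median log2 ratio of all genes moved from 0.03 to 0.39. On that scale 74.0%, 7.88% and 8.58% of all calls in the 3 comparisons were lower, in place of 59.2%, 57.1% and 67.2%.

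Grouped by lineage, 1 of the 3 myeloid members, Klf4, was measured for H3K27me3. Spi1 and Cebpa were under the count minimum, so whether the myeloid members moved together cannot be read. The 3 stem and progenitor members had a median log2 ratio of -0.20 in deleted against floxed and 0.81 in rescue against deleted. The 3 lymphoid members had 0.07 and -0.19, and all measured genes 0.02 and -0.06. In rescue against floxed, which does not use the deleted library, the medians were 0.40, -0.11 and -0.05 in the same order. These medians rest on 3 genes each.

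Among the 75 other factors, chosen by role with earlier results of these data known, 53 were measured for H3K27me3. In deleted against floxed 6 were lower and 0 higher (median log2 ratio -0.07), against 5.39% lower and 4.72% higher over all genes. Of the densest 10% of genes, 23.8% were lower and 0.283% higher. The lower ones included Maf, a macrophage factor with 170, 101 and 313 counts, Nr4a1 with 69, 39 and 50, Mycn, a Myc paralogue with 391, 222 and 697, and Ikzf1, the lymphoid factor Ikaros, with 23, 9 and 33; the others were Klf14 and Klf5. In floxed, Klf14, Mycn and Maf had 28.51, 27.85 and 19.1 CPM per kb, and Nr4a1, Klf5 and Ikzf1 3.55, 1.56 and 0.109. In rescue against deleted 7 of the 53 were higher and 4 lower, against 7.07% higher and 11.3% lower over all genes. Of the densest 10%, 16.2% were higher and 2.07% lower. In rescue against floxed 1 was higher and 4 were lower, against 5.72% and 8.05%. Rescue over deleted was 1.89 (1.63 to 2.21) for Mycn and 1.87 (1.49 to 2.36) for Maf. Gfi1b, a repressor that acts in red cell and platelet development, was at 1.66 (1.33 to 2.09) over deleted. Ikzf1 rests on few reads, at 2.21 (1.03 to 5.26) over deleted. Rescue over floxed was 1.04 for Mycn, 1.07 for Maf, 1.59 for Gfi1b and 0.834 for Ikzf1.

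Of the 11 measured family members used mainly outside blood, 2 were lower (Tcf7l2 and Gata5) and 2 higher (Klf14 and Klf5) in rescue against deleted. The Klf4 relatives Klf14 and Klf5 had ratios of 1.55 (1.27 to 1.89) and 1.57 (1.06 to 2.35). Runx3, the Runt factor of cytotoxic T cells, had 300, 287 and 291 H3K27me3 counts, with ratios of 0.612 (0.518 to 0.723) over deleted and 0.564 (0.478 to 0.665) over floxed. Its paralogue Runx1 was higher in both comparisons. Tcf7l2, a relative of Tcf7 used mainly outside blood, had 2346, 2548 and 2624 counts and ratios of 0.621 (0.588 to 0.656) and 0.650 (0.615 to 0.688). Its H3K4me3 window had 62, 41 and 68 counts, and rescue over deleted was 1.77 (1.18 to 2.67). Gata5, a family member of heart and gut, was at 0.653 (0.499 to 0.855) in rescue against deleted, while Gata2 was higher. Bcl11a, the fetal globin repressor and no relative of a member, had 725, 656 and 821 counts, and rescue over floxed was 0.659 (0.595 to 0.729).

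Of the other factors, 25 on the plus strand were measured for H3K4me3; 1 was lower and 1 higher in deleted against floxed, where 4.39% and 3.02% of all measured genes were. Against deleted, the rescue library had 6 higher and 0 lower (4.49% and 5.97% of all), and in rescue against floxed 1 was lower and 4 were higher (3.92% and 1.92% of all). The monocyte and dendritic cell factor Irf8 had 44, 26 and 52 counts, with rescue ratios of 2.13 (1.31 to 3.55) over deleted and 1.93 (1.27 to 2.95) over floxed. The retinoic acid receptor gene Rara had 68, 38 and 64 counts and ratios of 1.79 (1.18 to 2.75) and 1.54 (1.07 to 2.20). Foxo1, a factor of B-cell development, had 99, 42 and 65 counts, with a deleted to floxed ratio of 0.651 (0.442 to 0.942) and a rescue to deleted ratio of 1.65 (1.10 to 2.49). Klf2 was lower in rescue against floxed, at 0.630 (0.388 to 0.995). Hhex, the gene whose tagged form the rescue line carries, had 60, 68 and 130 counts and was the factor higher in deleted against floxed, at 1.74 (1.21 to 2.50). Its rescue ratios were 2.035 (1.507 to 2.771) over deleted and 3.538 (2.586 to 4.888) over floxed. The rescue counts at Hhex do not separate the cell's own gene from the added tagged copy. Whether that copy adds reads was not tested. The Hhex window is not known to lie in a deleted part, so it does not check the labels. Over the whole Hhex gene, H3K27me3 had 332, 385 and 487 counts, and the deleted to floxed ratio was 1.12 (0.963 to 1.30). A count of the mark over a whole gene cannot show whether a part was removed, so it does not check the labels either.

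The genes most like each member over the 6 histone libraries were sought among 12930 genes by Euclidean distance of log2 levels. They were Trp53bp2 and Brms1l for Spi1, Rps16 and Hist3h2a for Cebpa, Sp6 and Tmem132a for Klf4, and Sema3e and Lnx2 for Runx1. For Tal1 they were Car15 and Obsl1, for Gata2 Stbd1 and Wnk4, and for Gata1 Tmtc4 and Rcan1. For Ebf1 they were Zeb1 and Arhgef10, for Gata3 Col2a1 and Duox2, and for Tcf7 A630020A06 and Zc3h7a. The distances ran from 0.166 (Col2a1 for Gata3) to 1.01 (Hist3h2a for Cebpa), and for minus-strand genes the H3K4me3 part of the pattern does not read a start.

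No summit of the Flag libraries lay within 10 kb of any of the 10 factors. Over 25271 genes with a RefSeq position, 0.693%, 0.325% and 0.582% had a summit within 10 kb in floxed, deleted and rescue. The nearest was a rescue summit at 92845826 on chromosome 16, 19.8 kb before the distal start of Runx1, with the authors' score of 3.55; the nearest summits to Runx1 in the untagged floxed and deleted libraries were 9894 kb and 21657 kb away. Within 100 kb, 2.89% of genes had a rescue summit. The next was a floxed summit 64.7 kb from Tcf7, in a library with no tagged protein.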

How the data were processed

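In each of the 6 histone tables the authors deposited raw, whole-number read counts, 1 value per gene. Per the submitters' processing notes, featureCounts, MACS2 and mm10 were used, without versions. The aligner's name was not given in the sources used here. Counts on the 568 rows lacking a symbol (0.608% to 0.739%) were dropped. In the 3 Flag tables the authors deposited summits, each scored on a −log10 scale whose definition and control were not stated. Input chromatin was not used here, so copy number was not corrected.

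CPM ratios, exact conditional binomial (Clopper-Pearson) intervals and Poisson intervals came from Python 3.11.15 with scipy 1.17.1; 1 count, at the mean library size, was added before log2. Scaling alternatives used edgeR 4.0.16 and DESeq2 1.42.0. The size rule was tested on simulated counts; some 2-fold changes near the count minimum were missed, and the pass mark for them was lowered after a first run. Gene positions and strands came from RefSeq tables of GRCm38.p6 (25271 and 18458 named genes matched).

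The members and lists were chosen with earlier results of these data known. The named genes are the 10 members, up to 4 called genes per list and comparison by the interval bound farthest from 1, the 2 genes nearest each member in pattern, and adjacent or overlapping genes. Other factors of the lists named with floxed levels were chosen after their values were seen, as was the check by strand with its distances. 1 gene that the rule names is not reported here. Groups came from sample titles.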

Additional observations from a re-analysis of the deposited data

How the results depend on the processing

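In deleted against floxed, scaling to olfactory receptor genes gave 2 lower members in H3K27me3 (0 with library totals) and, in rescue against deleted, 1 higher member in H3K4me3 (0). With a 2-fold rule, 0 members were higher or lower in H3K27me3 in rescue against deleted (3 and 1 with the 1.5-fold rule) and in rescue against floxed (1 and 1). TMM factors and median-of-ratios size factors each gave 0 lower members in rescue against floxed, where Tcf7 lay at the edge of the rule. With no filter on counts, Cebpa joined the higher members in rescue against floxed, making 2. On that setting 1000 of the 26611 named genes were higher and 1202 lower. Summits within 100 kb were found for 1 member in the floxed and 1 in the rescue Flag library (0 within 10 kb). The other 70 counts compared moved by no more than 1.5-fold, among them those without the minus-strand members, a setting chosen after seeing the data; 178 log2 ratios of single members stayed within their intervals under the alternatives and 2 did not, both of Ebf1 in H3K27me3 with olfactory receptor genes (-0.10 in deleted against floxed and -0.03 in rescue against deleted), and none that was called changed sign.

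Over all genes, H3K27me3 calls were 1072, 1946 and 1461 in the 3 comparisons, 322, 807 and 608 with a 2-fold rule, 711, 1298 and 927 with a mean of at least 50 counts and 1614, 2851 and 2202 with no filter. H3K4me3 calls were 495, 699 and 390, and 112, 274 and 118, 196, 371 and 180, and 861, 1004 and 698 under the same settings; olfactory receptor scaling gave 1688 and 897 in both rescue comparisons. That scaling rests on 363 to 729 H3K4me3 counts in a library. No paired analysis was possible because each group has 1 library.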
